A study of Mus musculus with 6 samples.

Results

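H2-M5, Kcnh3, Extl3 and Ddit4l are the 4 genes, among 9093 measured, whose ratio of ribosome footprints to input mRNA was higher in Mettl5 knockout (KO) than in wild-type (WT) mouse embryonic stem cells by the widest margin over its error. They were selected from these same libraries, as the genes called higher once a spread of 0.2 (log2) had been added to each input library, so their changes are given as a description and were not tested. The label given to the group, footprint gain without mRNA gain, described 3 of the 4 genes well. For Ddit4l it misses the larger difference, because footprints were only 1.32-fold higher in KO cells while input mRNA was 3.90-fold lower.

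Mettl5 is the enzyme that methylates an adenosine of 18S ribosomal RNA at its N6 position, and KO cells were made with CRISPR/Cas9 and compared with unedited WT cells. Footprints were sequenced in 2 KO and 2 WT libraries and input mRNA in 1 KO and 1 WT library, all from cells of 129Sv mothers and C57BL/6 BVSC fathers. Both genotypes grew without serum in N2B27 medium with the MEK inhibitor PD0325901 (1 µM), the GSK3 inhibitor CHIR99021 (3 µM) and leukemia inhibitory factor (1000 U per ml), and both were treated with cycloheximide, which halts ribosomes, before lysis. How many KO clones there were, and whether libraries came from separate cultures, is not given in the sources used here, so the spread between libraries may be technical.

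The products of the 4 genes work in unrelated processes. H2-M5 is a nonclassical class I gene of the mouse major histocompatibility complex (MHC), a family of cell surface proteins of which the classical members present peptides to T cells. Kcnh3 encodes a voltage-gated potassium channel of the ether-a-go-go family, best known from forebrain neurons. Extl3 encodes an exostosin-like glycosyltransferase that acts at the start of heparan sulfate chains, and Ddit4l (REDD2) encodes a paralogue of the stress protein REDD1, both of which inhibit the growth-promoting kinase complex mTORC1. Ribosome profiling counts the mRNA fragments shielded by ribosomes, and their ratio to input mRNA is called translational efficiency (TE).

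In the RefSeq annotation of the mm10 build (GRCm38.p6), H2-M5 (ENSMUSG00000024459.18) spans chromosome 17, 36983785 to 36997955, and Kcnh3 (ENSMUSG00000037579.6) spans chromosome 15, 99224517 to 99242818. Extl3 (ENSMUSG00000021978.9) spans chromosome 14, 65052059 to 65149899, and Ddit4l (ENSMUSG00000046818.7) spans chromosome 3, 137623672 to 137628332. All 4 are protein-coding. Of the 4 members, only H2-M5 and Ddit4l had a RefSeq promoter, so both are printed to show the sequence around an annotated start. They are those of H2-M5 (chr17:36989484-36989783, minus strand) and Ddit4l (chr3:137623422-137623721, plus strand). Each runs from 250 bases before to 50 bases after a start given in the promoter table. For H2-M5 this start is an internal one, 8422 bases inside the gene's whole span, and other starts of the gene are not shown, while for Ddit4l it is the first base of the span. Capitals mark TATA boxes (TATAAA) and GC boxes (GGGCGG, or its reverse complement).
H2-M5: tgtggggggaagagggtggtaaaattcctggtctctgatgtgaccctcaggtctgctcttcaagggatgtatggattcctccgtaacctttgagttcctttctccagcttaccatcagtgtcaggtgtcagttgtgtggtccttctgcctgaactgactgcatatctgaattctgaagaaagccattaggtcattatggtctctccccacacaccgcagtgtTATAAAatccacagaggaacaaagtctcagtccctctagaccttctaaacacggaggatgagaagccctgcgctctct
Ddit4l: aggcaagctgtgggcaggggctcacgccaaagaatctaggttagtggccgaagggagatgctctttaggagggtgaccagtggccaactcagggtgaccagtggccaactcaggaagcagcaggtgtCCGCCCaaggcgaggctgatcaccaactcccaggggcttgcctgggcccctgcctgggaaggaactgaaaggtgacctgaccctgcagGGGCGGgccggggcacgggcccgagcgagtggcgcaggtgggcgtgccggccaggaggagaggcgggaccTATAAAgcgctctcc
In H2-M5 the TATA box began 28 bases before the start, and an ATG began at base 30 of the transcript. Ddit4l held GC boxes beginning 123 and 35 bases before the start, the first on the other strand, and a TATA box that began at base 36 of the transcript. On either strand, 13.6% of the 32851 promoters in the table held TATAAA and 35.7% held GGGCGG, while 44.3% had an ATG in the last 50 bases. Neither sequence held CCAAT, which was in 37.4% of promoters, nor CACGTG (in 7.15%) nor the cyclic AMP response element TGACGTCA (in 1.79%), searched on both strands, and no 2 marked motifs overlapped. Guanine and cytosine made up 65.7% of the Ddit4l promoter and 48.7% of that of H2-M5, against a median of 52.7%. Such matches are letters in a window and show no binding.

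The libraries differed in depth. The KO footprint libraries held 2060010 and 3472613 reads and the WT ones 3524739 and 8675267, while the inputs came to 15931259 reads in KO and 17912908 in WT if the lowest deposited input value stands for 1 read. Mettl5 itself had 9.71 and 11.2 CPM of footprints (counts scaled to the library's total) in the KO libraries, against 123 and 127 CPM in the WT libraries, with input at 6.47 CPM in KO and 25.8 CPM in WT. All 14 stem cell markers on the list were measured, and their summed footprints were 6366 to 6384 CPM in KO and 5850 to 5856 CPM in WT libraries. They did not move together. Footprints of 7 rose, 2 fell (Sall4 and Tfcp2l1) and 5 passed in neither direction, while 18.3% of all genes rose and 16% fell (edgeR). Among markers of other cells, the 4 measured of 12 for fibroblasts, Col1a1, Col5a1, Fbln2 and Vim, summed to 151 to 160 CPM in KO and 715 to 738 CPM in WT libraries. Of 10 endoderm markers the 5 measured, all basement membrane or matrix genes, summed to 1836 to 1894 CPM in KO and 3220 to 3222 CPM in WT. The 3 neural markers measured of 9 summed to 331 to 342 CPM in KO and 256 to 260 CPM in WT, the 1 immune marker of 7, Cd68, had 50.0 and 57.3 CPM in KO and 47.9 and 55.0 CPM in WT, and the 1 trophoblast marker of 5, Eomes, had 5.83 and 6.34 CPM in KO and 7.38 and 6.11 CPM in WT. Fewer cells of a type and less RNA per cell cannot be told apart in such bulk libraries. The remaining markers were not analysed here, and the part of other cell types in the values of the 4 genes was not tested.

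H2-M5 had the highest footprint gain of all genes measured. Its footprints were 558 and 646 CPM in the KO libraries, against 34.9 and 33.5 CPM in the WT libraries, from 1150 and 2245 reads in KO and 123 and 291 reads in WT. Both KO libraries were far above both WT libraries, and the lower KO value was 16.0 times the higher WT value. The means were 602 ± 62.4 CPM in KO and 34.2 ± 0.956 CPM in WT (SD, n = 2 each), a fitted log2 change of 4.19 (± 0.07 SE, edgeR) or 18.2-fold. Input mRNA of H2-M5 was 31.6 CPM in KO and 35.9 CPM in WT, a ratio of 0.880 with a 95% exact interval of 0.781 to 0.990, which covers counting error only and rests on the same reading of the input values. TE was therefore 17.7 and 20.5 in KO libraries and 0.972 and 0.934 in WT libraries. In WT cells H2-M5 lay near the middle of all genes, with 53.5% of genes lower in TE, whereas in KO cells it ranked 45th from the top. H2-M5 belongs to a multigene family, and how reads that fit several family members were assigned is not given in the sources used here, so its counts are uncertain.

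Kcnh3 was the second in rank, from a footprint level that was already high in WT cells for its input. It had 1303 and 1557 CPM of footprints in the KO libraries and 305 and 266 CPM in the WT libraries. The groups did not overlap, the lower KO value being 4.28 times the higher WT value. Mean footprints were 1430 ± 179 CPM in KO and 286 ± 27.1 CPM in WT (SD, n = 2 each), a log2 change of 2.38 (± 0.04 SE) or 5.22-fold. Its input was 26.9 CPM in KO and 38.4 CPM in WT, a ratio of 0.701 (95% counting interval of 0.620 to 0.792), so mRNA and footprints of the channel gene differed in opposite directions between these libraries. TE of Kcnh3 stood at 48.4 and 57.8 in KO and at 7.93 and 6.94 in WT libraries. In WT cells 97.9% of genes had a lower TE than Kcnh3, and in KO cells it ranked 26th.

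Extl3 showed the same direction at the other end of the TE scale. Footprints of this glycosyltransferase gene were 45.1 and 37.4 CPM in the KO libraries, against 7.94 and 10.8 CPM in the WT libraries. The lower KO value was 3.45 times the higher WT value, though only 93 and 130 reads in KO and 28 and 94 reads in WT stood behind them. The mean was 41.3 ± 5.45 CPM in KO and 9.39 ± 2.04 CPM in WT (SD, n = 2 each), a log2 change of 2.05 (± 0.18 SE) or 4.15-fold. Input of Extl3 was 150 CPM in KO and 170 CPM in WT, with a ratio of 0.881 (0.835 to 0.930). TE was 0.302 and 0.250 in KO and 0.0468 and 0.0638 in WT, so footprints stayed scarce for the mRNA present in both genotypes. Counted from the lowest TE, Extl3 ranked 645th in KO cells and 15th in WT cells. Of the 60 genes with a mean WT TE below 0.1, 41 also stayed below 0.1 in KO cells, and Extl3 reached the highest KO mean, 0.276 against 0.165 for the next gene. Extl3 was selected on its TE change, so this place is not separate evidence.

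Ddit4l differed from the other three in where its TE change came from. Its footprints were 54.4 and 55.6 CPM in the KO libraries, against 45.1 and 40.8 CPM in the WT libraries, so that the groups were separate but close. The means were 55.0 ± 0.855 CPM in KO and 43.0 ± 3.04 CPM in WT (SD, n = 2 each), a log2 change of 0.40 (± 0.12 SE). Input of this mTORC1 inhibitor gene was 7.22 CPM in KO and 28.1 CPM in WT, a ratio of 0.257 (95% counting interval of 0.208 to 0.315) between the single input libraries used here, so it has no replicate check. TE was 7.53 and 7.70 in KO and 1.60 and 1.45 in WT, which moved Ddit4l to the 89th rank in KO cells, against the 2404th in WT cells. Over all genes, 16% fell in footprints (edgeR). Of the 28 genes with an input log2 ratio at or below -1.5, footprints of 27 fell. Ddit4l was the one gene among them with higher footprints in KO, while the next, 9030617O03Rik, fell by 0.62 and the median of the 28 was -1.59. These are the values by which Ddit4l entered the group, so they are not separate evidence.

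**Figure D1:**
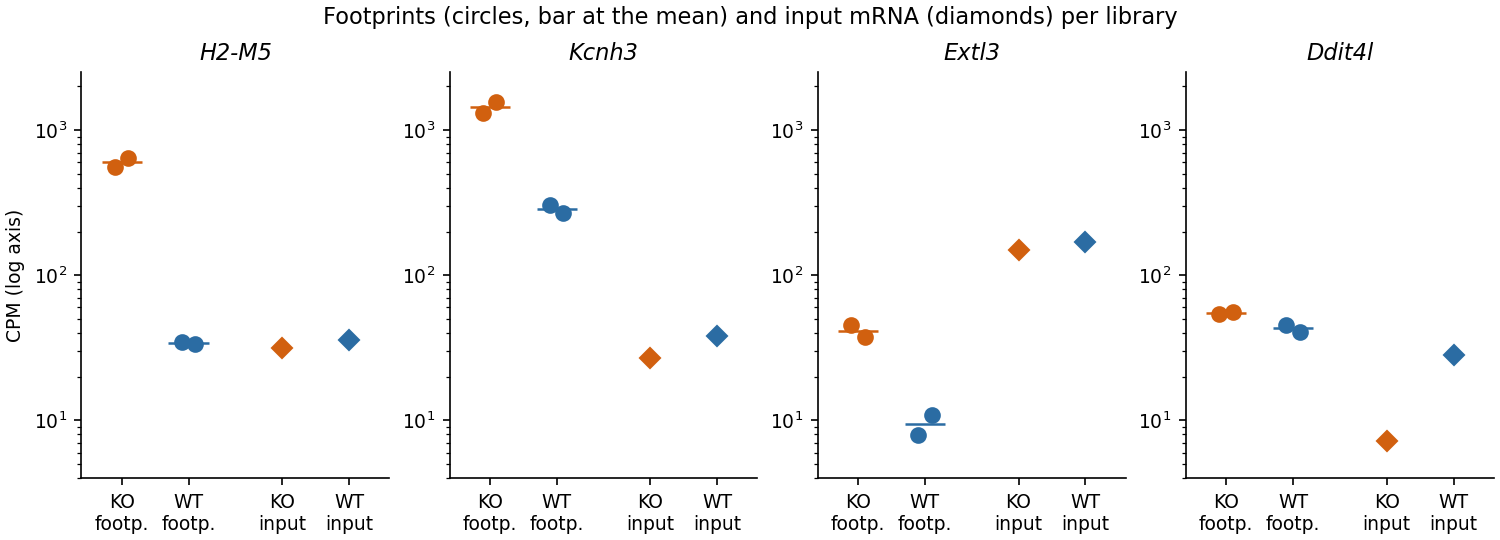
Footprints (circles, horizontal bar at the mean of 2 libraries) and input mRNA (diamonds, 1 library) of the 4 genes in CPM on a log axis, KO in orange and WT in blue. KO footprints lie above WT footprints in every panel, by the least in Ddit4l, and KO input lies below WT input in every panel.

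For all 4 genes both KO footprint libraries exceeded both WT libraries, an arrangement found in 29.8% of all genes, and nothing is read from it because the rule used these values. By edgeR 18.3% of genes were called higher and 16% lower in KO footprints, and by limma 4.88% were higher and 12.8% lower in TE. Centring each library on its median made 46.1% of the TE calls higher, against 27.6% without it. With the added input spread the higher TE calls were these 4 genes alone, 0.044% of those tested, and 0 genes were lower (46 and 696 at an unadjusted p under 0.05, limma). No KO over WT input ratio of the 4 was above 1. Input was past 1.5-fold lower in KO for 6.17% of genes, Ddit4l among them, and past 1.5-fold higher for 15.1%.

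On the log2(CPM + 1) scale a TE change has 2 parts, the difference in footprints and the input log2 ratio with its sign turned. The TE change of H2-M5 was 4.27 (± 0.16 SE, limma), of which the input log2 ratio of -0.18 made up 4.21%. For Kcnh3 the TE change was 2.81 (± 0.13), and an input log2 ratio of -0.50 made up 17.6% of it. Extl3 had a TE change of 2.22 (± 0.26), with 8.21% from an input log2 ratio of -0.18. In Ddit4l the shares were turned round, since an input log2 ratio of -1.83 made up 83.9% of a TE change of 2.18 (± 0.25). The SE values treat each single input library as if it varied like a footprint library. Mean TE as listed in the authors' deposited table was 19.1 in KO and 0.953 in WT for H2-M5, 53.1 in KO and 7.44 in WT for Kcnh3, 0.276 in KO and 0.055 in WT for Extl3, and 7.62 in KO and 1.53 in WT for Ddit4l.

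**Figure D2:**
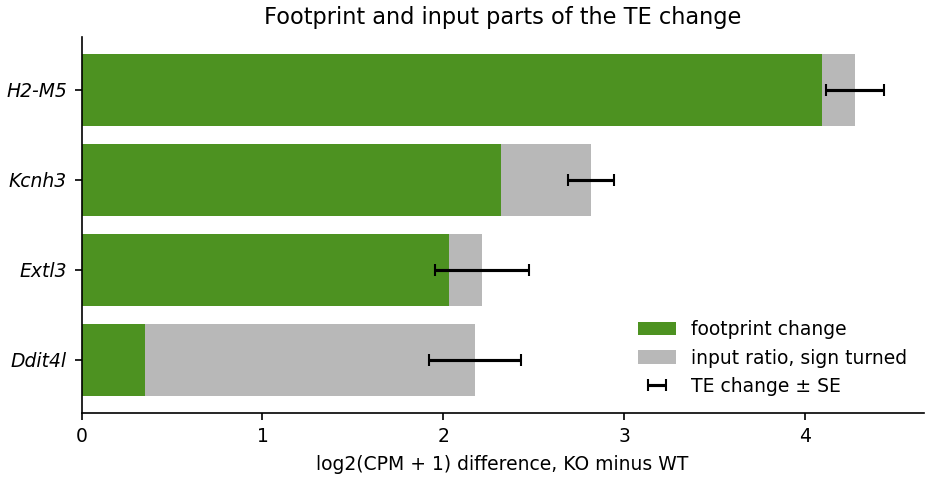
Horizontal bars show the mean footprint difference, KO minus WT, in log2(CPM + 1) (green), followed by the input log2 ratio with its sign turned (grey); their sum is the TE change, with its limma SE as the error bar. Green fills most of the bar in H2-M5, Kcnh3 and Extl3, and grey makes up 83.9% of it in Ddit4l.

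**Figure D3:**
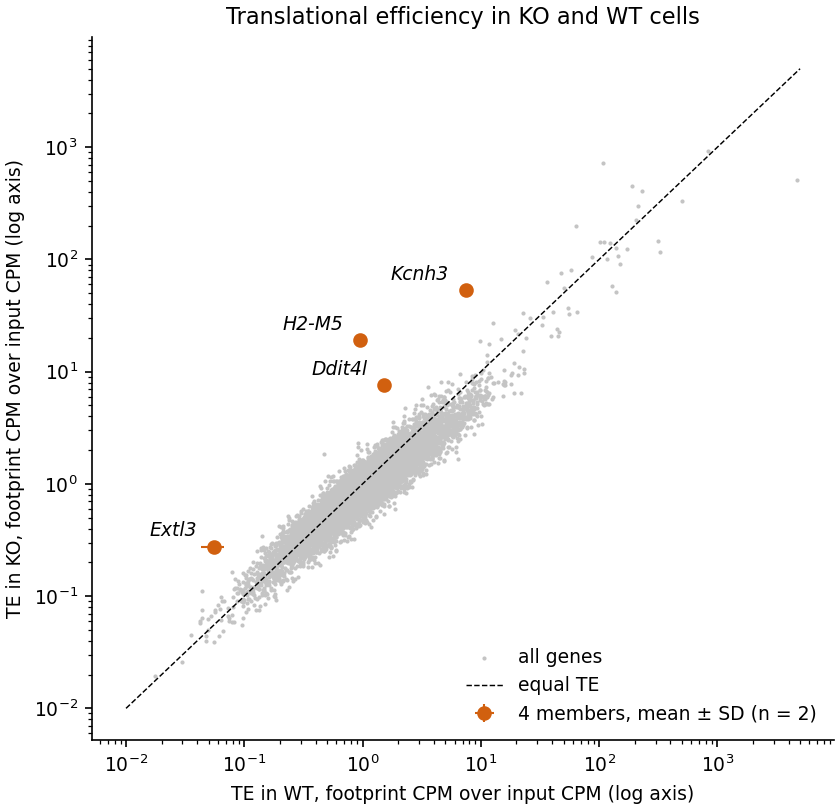
Each point is a gene, with mean TE in WT cells on the x axis and in KO cells on the y axis, both as footprint CPM over input CPM on log axes; the 4 genes are in orange with the SD of 2 footprint libraries. They lie above the line of equal TE at TE levels from 0.055 (Extl3) to 7.43 (Kcnh3) in WT cells.

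The rule left a gap between the last member and the next gene. The TE change divided by its error, input spread included, was 5.77 for Extl3 and 5.73 for Ddit4l, against 3.97 for the histone H4 gene Hist1h4j, 3.89 for Pm20d1, 3.70 for Eef1g, 3.63 for the histone variant gene H2afx and 3.07 for the matrix metalloproteinase gene Mmp25. TE changes of the 5 genes outside the rule ran from 1.07 (H2afx) to 1.82 (Pm20d1). Hist1h4j and Eef1g resembled the first 3 members, with footprint log2 changes of 1.21 and 1.37 and input log2 ratios of -0.05 and -0.01, whereas H2afx, at 0.31 and -0.77, was nearer to Ddit4l. Pm20d1 (1.16 and -0.80) and Mmp25 (0.63 and -0.54) combined both parts. Hist1h4j and Eef1g have near-identical copies, so their counts are uncertain.

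**Figure D4:**
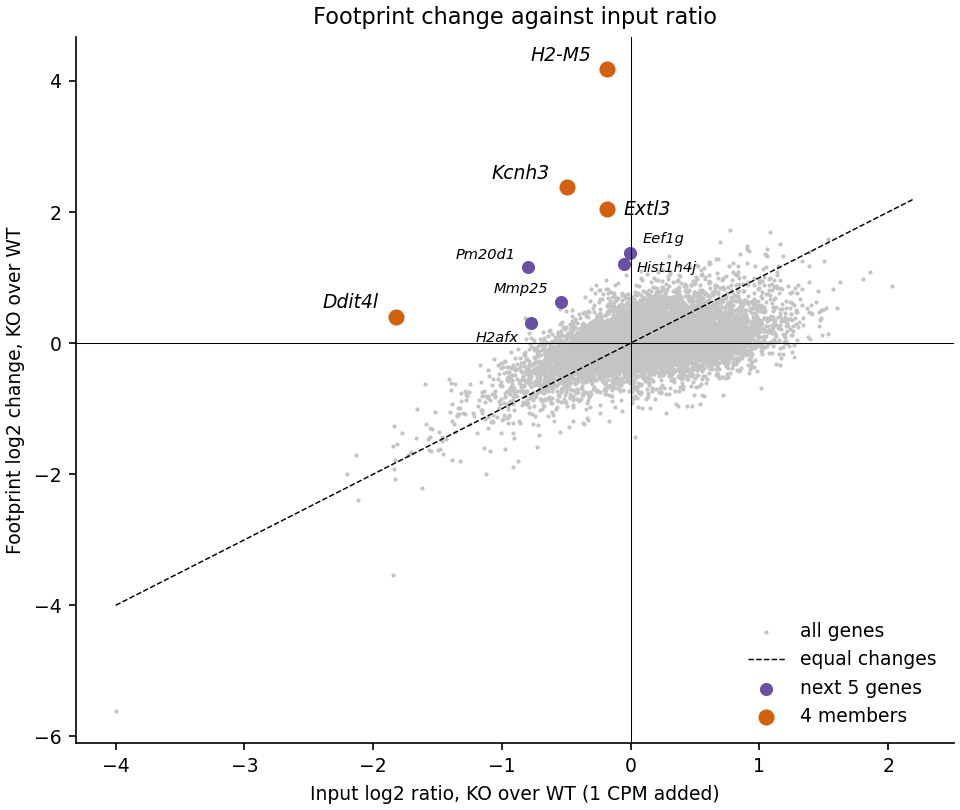
Footprint log2 change (y axis) against input log2 ratio (x axis), KO over WT, for all 9093 genes (grey), the 4 members (orange) and the next 5 genes in order (purple); the dashed line marks equal changes. H2-M5, Kcnh3 and Extl3 stand above the cloud at input log2 ratios between -0.50 and -0.18. Ddit4l stands above the dashed line at -1.83, the 11th lowest input log2 ratio.

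Likeness was measured as the Euclidean distance between log2(CPM + 1) profiles over the 6 libraries, each centred on its mean. No gene came close to H2-M5, whose nearest were Crip1, Fam199x and Kcnh3 at distances of 3.07, 3.09 and 3.11, and Crip1 and Fam199x differed from it in having higher input in KO (log2 ratios of 1.18 and 0.80). The nearest to Kcnh3 were Gm3839, Mpc1 and Scoc, at 1.71 to 1.98, with footprint changes of 0.60 to 0.85. Extl3 was nearest to Hist1h4j (1.23), the zinc finger gene Zbtb39 (1.30) and Eef1g (1.30). TE of Hist1h4j rose by 1.28 (limma adjusted p = 2.51e-06), of Eef1g by 1.28 (limma adjusted p = 7.69e-05) and of Zbtb39 by 0.85 (limma adjusted p = 0.0472), although the Zbtb39 call was lost without the first WT library (limma adjusted p = 0.108) or the first KO library (limma adjusted p = 0.0699). Ddit4l was nearest to Scand1 (0.85), Ppp1r35 (0.86) and Zfp771 (0.91), in which footprints passed in neither direction and input log2 ratios were -1.17, -0.75 and -0.93. Among these, TE rose past the threshold in Ppp1r35 (0.81, limma adjusted p = 0.00714). All of these TE calls, of Hist1h4j, Eef1g, Zbtb39 and Ppp1r35, were lost with the added input spread (limma adjusted p = 0.243, 0.246, 0.603 and 0.501) and with the p-values of the authors' deposited table after adjustment (adjusted p = 0.0695, 0.0919, 0.221 and 0.101).

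The measured genes beside H2-M5, Kcnh3 and Extl3 did not have footprint changes near those of the 3 members, while a neighbour of Ddit4l did not pass the test but had a higher value than Ddit4l. The nearest measured gene to H2-M5 on one side was Zfp57, a zinc finger gene of imprint maintenance 3208 bases away, whose footprints fell to 185 and 198 CPM in KO, against 261 and 280 CPM in WT (log2 change of -0.48 ± 0.06, edgeR adjusted p = 9.57e-15). On the other side Znrd1as had a change of 0.33 (edgeR adjusted p = 0.288). Kcnh3 overlaps its neighbour Mcrs1 by 2 bases and the long noncoding RNA gene Gm46538, not analysed here, by 1357 bases. Mcrs1 had 17.0 and 12.7 CPM in KO and 16.2 and 13.1 CPM in WT (0.04, edgeR adjusted p = 0.906), and Spats2, on the other side, had a change of -0.00171 (edgeR adjusted p = 0.989). Around Extl3, which overlaps the noncoding RNA gene Gm52119 (not analysed here) by 3871 bases, Ints9 and Zfp395 had changes of 0.04 and -0.02 (edgeR adjusted p = 0.819 and 0.926). Beside Ddit4l, Ppp3ca and Dnajb14, 686 and 239 kb away, had changes of -0.49 and 0.50 (edgeR adjusted p = 0.0735 and 0.0985).

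Within 500 kb, 6 genes were measured around H2-M5. Footprints of 2 rose and of 1 fell, against 18.3% and 16% of all genes, and the changes ran from -0.48 to 0.63. The corresponding numbers for Kcnh3 were 21 genes, 5 that rose and 1 that fell, from -0.54 to 1.15. Near Extl3 1 of 6 genes fell and 0 rose, with changes from -0.22 to 0.05, and both genes near Ddit4l passed in neither direction. No gene in these windows reached the footprint change of the member it lies near, apart from Dnajb14, whose 0.50 is above the 0.40 of Ddit4l.

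**Figure D5:**
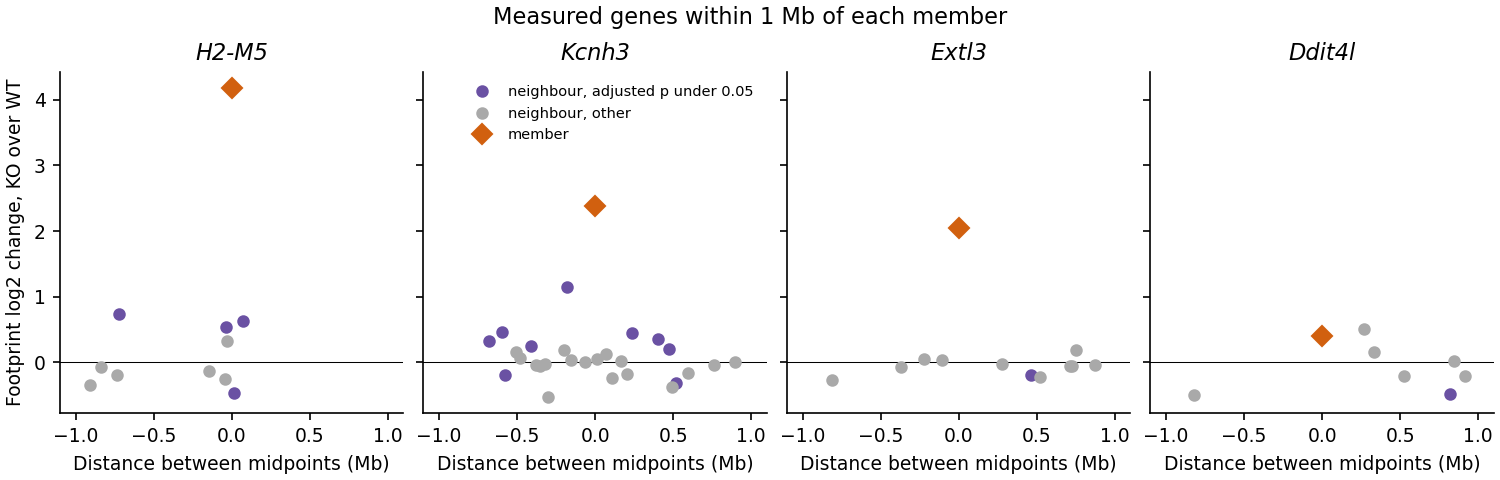
Footprint log2 change, KO over WT, of measured genes within 1 Mb of each member (circles, purple where edgeR's adjusted p was under 0.05), by the distance in Mb between gene midpoints, with the member as an orange diamond at 0. H2-M5, Kcnh3 and Extl3, at 4.19, 2.38 and 2.05, stand above every neighbour shown, while Ddit4l, at 0.40, does not.

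Relatives of H2-M5 went the other way or did not pass the test. H2-K1, a classical class I gene, fell to 31.6 and 36.9 CPM of footprints in KO, against 48.5 and 48.2 CPM in WT (log2 change of -0.45 ± 0.14, edgeR adjusted p = 0.00424), a call lost with DESeq2 (adjusted p = 0.108) and when the first KO library was left out (edgeR adjusted p = 0.0689). H2-Bl and H2-D1 had changes of -0.35 and -0.11 (edgeR adjusted p = 0.0783 and 0.671). Input log2 ratios of the 3 genes were -0.62, -0.46 and -0.56, below the -0.18 of H2-M5, and their TE changes were 0.13, 0.12 and 0.46 (limma adjusted p = 0.781, 0.816 and 0.378). Footprints rose in 18.3% and fell in 16% of all genes (edgeR). Among 15 measured genes of class I MHC and antigen presentation besides H2-M5, footprints of 4 rose, 4 fell and 7 passed in neither direction. The list median was -0.11, against -0.00027 over all genes. The rises were led by the proteasome genes Psmb10 (0.52, edgeR adjusted p = 0.0445) and Psme1 (0.35, edgeR adjusted p = 4.53e-05) and the chaperone gene Calr (0.35, edgeR adjusted p = 5.03e-29). Besides H2-K1, the largest falls were those of Fcgrt, the neonatal Fc receptor (-0.92, edgeR adjusted p = 2.75e-05), and the disulfide isomerase gene Pdia3 (-0.26, edgeR adjusted p = 8.79e-17). Without the second WT library 1 gene of the list rose, the calls of Psmb10 and Psme1 being among those lost (edgeR adjusted p = 0.287 and 0.155), and with DESeq2 2 rose. The Psmb10 call was also lost with the replicate block (edgeR adjusted p = 0.0511), with DESeq2 (adjusted p = 0.396) and without the second KO library, where its change was 0.20 (edgeR adjusted p = 0.732).

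Only 3 potassium channel genes were measured besides Kcnh3. Its relative Kcnh2, the ERG channel of heart repolarisation, had 10.7 and 9.79 CPM in KO and 9.08 and 8.41 CPM in WT (0.25, edgeR adjusted p = 0.472), with an input log2 ratio of -0.46, close to the -0.50 of Kcnh3. TE of Kcnh2 had a difference of 0.67 that did not pass the test (limma adjusted p = 0.237). The two-pore channel gene Kcnk1 rose by 0.76 (edgeR adjusted p = 2.17e-06), but its input was higher as well (0.53), and the third, Kcnk5, passed in neither direction.

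Of the exostosins, Ext2, a subunit of the heparan sulfate polymerase, was measured beside Extl3. It had 25.7 and 33.4 CPM in KO and 28.1 and 31.4 CPM in WT (0.03, edgeR adjusted p = 0.906). Extl3 thus stood apart from it in footprints, while input was lower in KO for both (log2 ratios of -0.18 for Extl3 and -0.45 for Ext2). The footprint shares over all genes were 18.3% rising and 16% falling (edgeR). On the heparan sulfate list, footprints of 1 of 29 measured genes besides Extl3 rose, 6 fell and 22 did neither, with a median of -0.12. The list also holds the chondroitin sulfate genes Chsy1, Chpf and Chpf2, which passed in neither direction. The rise was that of the extracellular sulfatase gene Sulf2 (0.41, edgeR adjusted p = 8.4e-16). Its paralogue Sulf1 fell most (-1.80, edgeR adjusted p = 2.75e-09), followed by the syndecan gene Sdc3 (-0.95, edgeR adjusted p = 0.00402) and the sulfotransferase gene Hs2st1 (-0.58, edgeR adjusted p = 0.0193). The falls numbered 2 with DESeq2 and 3 without the first WT or the second KO library. Calls of Sdc3 were lost without the second WT or the second KO library (edgeR adjusted p = 0.187 and 0.387), and those of Hs2st1 with DESeq2 (adjusted p = 0.196) and without the first WT or the first KO library (edgeR adjusted p = 0.0769 and 0.268).

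Ddit4, which encodes REDD1, had 349 and 308 CPM of footprints in KO and 293 and 304 CPM in WT (log2 change of 0.14 ± 0.05, edgeR adjusted p = 0.0249). As in Ddit4l its KO input was the lower one, though far less so (log2 ratio of -0.29), and its TE rose by 0.43 (limma adjusted p = 0.0033). The footprint call of Ddit4 was lost with DESeq2 (adjusted p = 0.231) and without the first WT or the first KO library (edgeR adjusted p = 0.1 and 0.472), and the TE call with the added input spread (limma adjusted p = 0.823) and with the p-values of the authors' deposited table (adjusted p = 0.155). Over all genes, footprints of 18.3% rose and 16% fell (edgeR). Among 48 measured mTORC1 regulators and outputs besides Ddit4l, footprints of 11 rose, 8 fell and 29 did neither, with a median of -0.04. The GATOR2 subunit genes Mios (0.80, edgeR adjusted p = 7.88e-10) and Wdr59 (0.70, edgeR adjusted p = 2.18e-07) and the translation repressor gene Eif4ebp1 (0.55, edgeR adjusted p = 8.26e-31) rose most. The Ragulator gene Lamtor5 (-0.49, edgeR adjusted p = 0.00359), the folliculin gene Flcn (-0.44, edgeR adjusted p = 0.0446) and Eif4ebp2 (-0.42, edgeR adjusted p = 0.000402) fell most. The call of Flcn was lost with DESeq2 (adjusted p = 0.315), with the replicate block (edgeR adjusted p = 0.0624) and with any 1 library left out (edgeR adjusted p = 0.0521 to 0.342). That of Lamtor5 was lost with DESeq2 (adjusted p = 0.139) and without the second WT or the second KO library (edgeR adjusted p = 0.199 and 0.0934), and that of Eif4ebp2 with DESeq2 (adjusted p = 0.055). With DESeq2 5 genes of the list rose and 0 fell. The rises numbered 7 without the first WT and 6 without the second KO library, and the falls 1 without the second WT, 5 without the first KO and 4 without the second KO library. In TE, limma called 1, 0, 2 and 4 genes higher and 3, 0, 1 and 3 lower on the MHC, potassium channel, heparan sulfate and mTORC1 lists. The TE shares over all genes were 4.88% higher and 12.8% lower. With the added input spread, 0 genes of the lists were called in either direction.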

How the data were processed

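Footprints were deposited by the authors as raw read counts per gene and as CPM, per the file headers, each count over its CPM giving 1 library total. For input mRNA the authors deposited CPM alone; every value was a whole multiple of the lowest (tolerance of 0.01), and 2 further per-sample columns, named like a second input of each genotype, match no sample label and were not used, so they give no replicate check of input here. TE ratios, the log2 TE fold and unadjusted p-values are also the authors' deposited values, both ratios of a genotype sharing 1 input library. Bowtie and mm10 are named per the submitters' processing notes; their versions, the counter, annotation and gene selection were not stated there. Each gene had at least 11 footprint counts in each library, so genes seen in 1 genotype only are not analysed here.

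Here, footprint counts were tested with edgeR 4.0.16 (quasi-likelihood, TMM, totals before the authors' filter), and TE with limma 3.58.1 on log2(CPM + 1) as a genotype by library type interaction, both over all 9093 genes with Benjamini-Hochberg adjustment at 0.05. Filters removed 0 genes and 0 of the 4 members. Adding 1 CPM understates changes of low genes. Each main fit had 2 residual degrees of freedom, and fits with the replicate block or a library left out had fewer. DESeq2 1.42.0, other scalings, pseudocounts, floors and left-out libraries were alternatives, and the fits were tested on simulated data. Positions of 9057 genes and promoters, which 2 of the 4 members had, came from RefSeq. Named genes were the members, the 5 next in order, the 3 nearest profiles, nearest neighbours, family members and the 3 largest called changes each way per list. Members and lists were chosen with earlier results of these data known. Figures used matplotlib 3.10.9.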

Additional observations from a re-analysis of the deposited data

How the results depend on the processing

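All 4 genes kept the direction of their footprint, input and TE values under each alternative run. This is no separate evidence, because the genes were selected on these values. Both KO footprint libraries exceeded both WT libraries in each gene, so leaving out 1 library could hardly turn a direction. The input alternatives changed only the pseudocount or the centring of the same single libraries. Leaving out 1 footprint library gave footprint log2 changes of 4.06 to 4.28 for H2-M5, 2.23 to 2.50 for Kcnh3, 1.93 to 2.37 for Extl3 and 0.31 to 0.46 for Ddit4l. TE changes over all alternatives were 4.17 to 4.38, 2.69 to 2.94, 2.01 to 2.42 and 2.11 to 2.32. That of Ddit4l was 2.30 with 0.1 CPM added, 2.27 with median centring, which moves all genes alike, and 2.32 in the authors' deposited table. Counts over all genes moved more. Footprint calls were 771 higher and 629 lower with DESeq2, against 1668 and 1458 with edgeR, and 1015 to 1480 and 920 to 1253 with 1 library left out, fewest without the second KO library. TE calls were 444 higher and 1165 lower, 279 to 811 and 823 to 1589 with 1 library left out, 756 higher with median centring, 36 and 107 with the authors' p-values after adjustment, and 4 and 0 with the added input spread. TE calls on the lists moved with single libraries. On the mTORC1 list 2 were higher without either WT library and 9 without either KO library (7 with median centring), and 7 and 6 were lower without the first and second KO library. On the heparan sulfate list 3 were lower without either KO library, and on the MHC list 0 were higher without the first WT, second WT or second KO library and with the replicate block. The replicate block gave 1580 and 1372 footprint calls and 441 and 1200 TE calls. The difference of library 2 from library 1 had a correlation of -0.03 between genotypes. At a median of 85 to 367 reads per gene, counting error can hide a shared difference. Whether libraries of the same number share a batch therefore cannot be told from it. Footprint directions turned in genes near 0. Without 1 library these ranged from -0.22 to 0.17 for Ext2, -0.094 to 0.056 for Spats2, -0.15 to 0.28 for Mcrs1, -0.095 to 0.12 for Ints9, -0.29 to 0.13 for Zfp395 and -0.020 to 0.16 for Ppp1r35 in footprints. Spats2 was 0.0016 with the replicate block. The TE change of Gm3839, which was not near 0 at 0.57 in the main fit, was -0.13 in the authors' table. The cause of these shifts was not tested. Of 611 comparisons of 45 other named genes with an alternative, 548 kept side and direction. A count test on input reads was not run, because only 46 to 48 genes had input within 20 steps of 0, too few to fix the step. Depth limits Extl3 most, at 28 reads in 1 library.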

Other observations

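Footprint gain without input gain was uncommon among large gains. Of 71 genes whose footprints rose past 2-fold (edgeR), 7 had an input log2 ratio at or below 0. Over all genes, 30.1% had an input log2 ratio below the -0.18 of H2-M5, so at least that share lay below 0. The median input log2 ratio of the 71 was 0.72, against 0.045 over all genes. H2-M5, Kcnh3 and Extl3 are among the 7 and were selected on these values. The others of the 7 were Eef1g, a translation elongation factor subunit gene, Hist1h4j, Pm20d1, a secreted peptidase gene, and Cdk2ap2. Cdk2ap2, named here after its values were seen, had 14.8 ± 2.34 CPM of footprints in KO and 7.77 ± 1.05 CPM in WT (SD, n = 2 each), with an input log2 ratio of -0.04. Its TE change of 0.88 did not pass the threshold (limma adjusted p = 0.0734).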
